A study of Simmondsia chinensis with 44 samples.

Results

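Jojoba (Simmondsia chinensis) grows in deserts and fills its seeds with liquid wax esters as a reserve. The genes described here are those that stood highest in dry seed in a time course of seeds and, in dissected seeds of the mid stage, were also preferred in the embryonic axis. They were chosen by measured values: the mean normalized count of a group, plus 1, had to be at least 20 in dry seed and at least 2-fold above each of early, mid and late seed, and at least 20 in axis and at least 2-fold above both cotyledon and seed coat. This held for 236 of the 23491 genes counted, and the 200 with the highest mean in dry seed were kept. The dry-seed condition alone was met by 2803 genes and the axis condition alone by 1371.

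RNA sequencing libraries were made from seeds of one germplasm line, PARL# 940. The time course held early, mid and late stage developing seed and dry seed, with 6 libraries each. The other series held embryonic axis, whole seed, seed coat and cotyledons of mid stage developing seed, with 5 libraries each, and no library carried a treatment or a change of genotype. The axis was dissected at the mid stage only, so the preference for axis is that of mid-stage seeds and was not measured in dry seeds. The labels do not say whether time-course seeds kept their coats, nor whether the libraries within a group stem from different plants, so each p-value speaks only for variation among these libraries, part or all of which could be technical.

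The embryonic axis is the part of the embryo that becomes root and shoot when the seed germinates, while cotyledons are its storage leaves and the seed coat is maternal tissue around it. Late in development most seeds mature, store reserves, gain tolerance of drying and then lose water, and dry seeds hold messenger RNA that was made before or during drying. Genes known in other plants for high RNA levels at this time include those of late embryogenesis abundant proteins, small heat shock proteins, oleosins and storage proteins. The files used here do not pair jojoba's gene identifiers with names or functions, so none of the 200 genes is assigned to such a class, no tissue label could be checked against marker genes, and members are given by identifier only.

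Libraries held 7713214 to 16014089 counts before the dry stage, 15658880 to 23773845 at the dry stage, and 9882334 to 32758764 among dissected tissues and whole seeds. Levels below are the authors' normalized counts, that is, counts divided by 1 factor per library. They are not divided by gene length, so they compare groups for a gene and not the molecules of different genes. Each series was normalized separately, so levels are compared within a series only, apart from correlations given as descriptions. Late seed libraries 4 and 6, dry seed library 4 and cotyledon libraries 4 and 5 stood apart from others of their groups in the levels of these genes, with values given below.

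The 200 genes took few counts in developing seed and many in dry seed. They held 0.142% ± 0.0107 of a library's counts in early seed, 0.230% ± 0.0128 in mid seed, 1.197% ± 0.63 in late seed and 7.98% ± 1.98 in dry seed (SD, n = 6 each). The lowest, median and highest libraries held 0.133%, 0.139% and 0.162% in early seed, 0.215%, 0.230% and 0.245% in mid seed, 0.692%, 0.855% and 2.20% in late seed, and 6.45%, 7.34% and 11.9% in dry seed. No library of a stage overlapped with a library of another stage. In the dissected series the shares were 1.67% ± 0.16 in axis, 0.211% ± 0.043 in whole seed, 0.0697% ± 0.0052 in seed coat and 0.414% ± 0.034 in cotyledon (SD, n = 5 each), again with no overlap between groups. These shares describe genes chosen by the same values and are given without a test. In such bulk samples fewer cells of a type and less RNA per cell cannot be told apart.

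**Figure D1:**
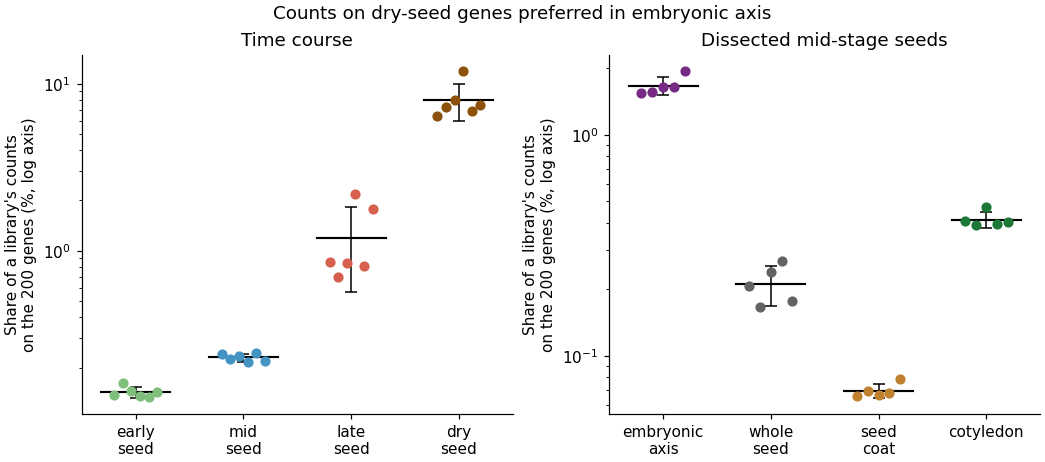
Share of each library's counts that fell on the 200 genes (percent, log axis), for 6 libraries per stage of the time course (left) and 5 per group of dissected mid-stage seeds (right). Points are libraries, long lines are means and bars are SD; late seed libraries 4 and 6 lie at 2.20% and 1.78%, above the other late libraries, and dry seed library 4 lies at 11.9%.

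The share in late seed rested partly on libraries 4 and 6, which held 2.20% and 1.78%, while the other 4 held from 0.692% to 0.862%. Without them late seed averaged 0.802% ± 0.077 (n = 4). Dry seed library 4 held 11.9%, and without it dry seed averaged 7.20% ± 0.59 (n = 5). Genes that met the dry-seed condition and, by the same limits, were preferred in another tissue or in none took other shares. The 76 preferred in cotyledon held 0.549% ± 0.048 of dry-seed counts, the 101 preferred in coat 0.998% ± 0.059, and the 2390 others 32.8% ± 1.4 (SD, n = 6 each).

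A few genes carried most of these counts. In dry seed the 10 members with the most counts held 60.3% of all counts on the 200 genes and the top 20 held 81.4%. In axis the top 10 held 61.1%, in late seed 74.7% and in early seed 39.0%. The median member stood at 26.3 normalized counts in early seed, 39.0 in mid seed, 67.2 in late seed and 586 in dry seed. Its level was 236 in axis, 45.3 in whole seed, 20.9 in coat and 62.8 in cotyledon. Means of at least 1000 were reached by 1 member in early seed, 5 in mid seed, 21 in late seed and 74 in dry seed, and by 41 in axis, 8 in whole seed, 1 in coat and 13 in cotyledon. No count at all was seen for 8 members in early seed, 2 in mid seed and 7 in coat.

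**Figure D2:**
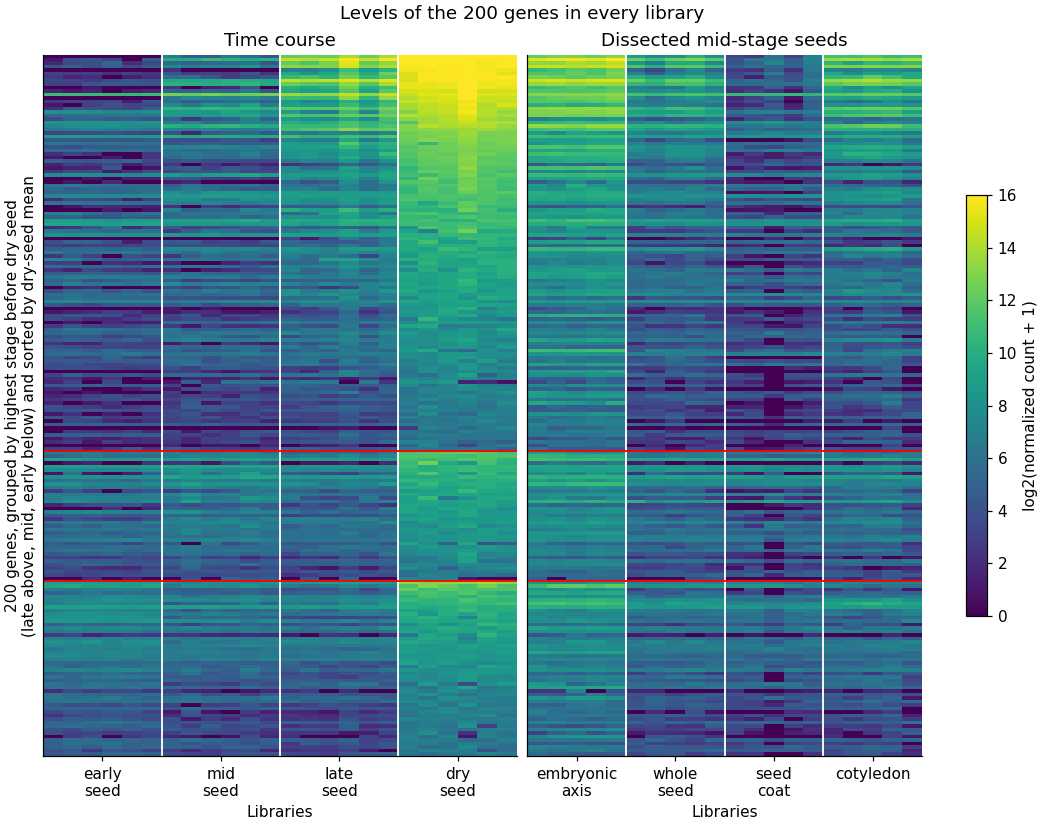
Level of each of the 200 genes (rows) in each library (columns), as log2 of the normalized count plus 1, with white lines between groups. Red lines part the 113 genes whose highest mean before dry seed was in late seed (top) from 37 highest in mid seed and 50 highest in early seed (bottom); within each block genes are sorted by their mean in dry seed.

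The gene with the highest mean in dry seed was Sc17g0001390. Its lowest, median and highest normalized counts were 0, 0 and 0 in early seed, 18.0, 35.8 and 109.9 in mid seed, 4526, 5443 and 15451 in late seed, and 76763, 101040.0 and 249840.0 in dry seed. It had no read in any early library, so dry seed was at least 36812-fold above early seed against a floor of 3 counts per library. In the dissected series it had 4579.9, 6967, 7253, 5228 and 9112 in axis, 495, 175, 289.9, 998 and 239 in whole seed, 10.1, 4.69, 56.7, 7.25 and 114 in coat, and 2352, 2056, 3185, 1656 and 2128 in cotyledon. All its axis libraries lay above all others, and its coat libraries were the lowest. It took 9.19% of the dry-seed counts on the 200 genes, which without it held 7.23% of a dry-seed library.

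Sc06g0003330 came next in dry seed and led the 200 genes in late seed, axis, cotyledon and whole seed. Its lowest, median and highest levels were 0, 11.5 and 23.0 in early seed, 886, 1057 and 1733 in mid seed, 19285, 25870.1 and 56748 in late seed, and 84544, 108087 and 204795 in dry seed. Axis libraries had 39521, 50057, 48711, 45388 and 68516, whole seed 5259.9, 2062, 5586, 8229 and 3829, coat 17.7, 81.2, 71.5, 30.8 and 137, and cotyledon 12907, 15816, 16715, 11779.5 and 16746. Each stage lay above the one before it with no overlap of libraries. The gene alone took 17.1% of the counts on the 200 genes in axis, 17.0% in cotyledon, 12.6% in whole seed and 20.03% in late seed.

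**Figure D3:**
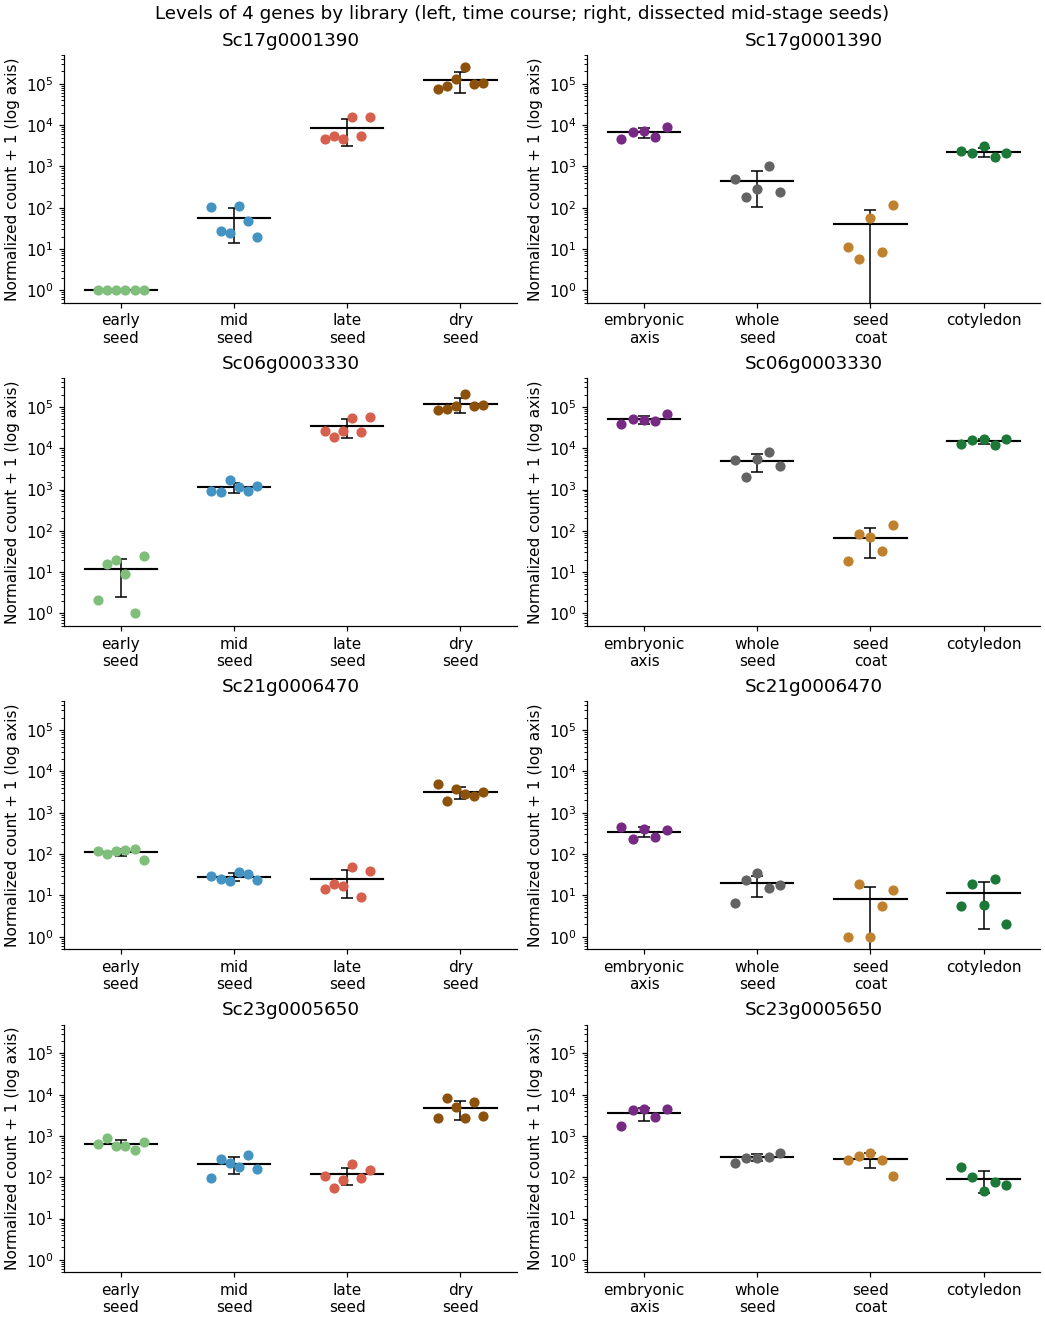
Normalized count plus 1 (log axis) of 4 genes in each library, in the time course (left) and in dissected mid-stage seeds (right). Points are libraries, long lines are means and bars are SD, cut at the bottom of the axis where SD exceeds the mean; Sc17g0001390 and Sc06g0003330 climb through every stage, while Sc21g0006470 and Sc23g0005650 are lower in mid and late seed than in early seed before their dry-seed level.

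Dry seed stood far above late seed for many members, by folds of group means plus 1 that the choice of genes used. The median fold of dry over late seed was 7.67, with quartiles of 4.74 and 17.7 and a range from 2.17 to 1005. It was at least 16-fold for 55 members. The median was 11.5 over mid seed and 17.2 over early seed. Every dry library lay above every late library for 170 of the 200 members, beside 28.7% of all genes at 1 CPM or more, where CPM is the count scaled to a common library total. Nothing is read from this share, since the same values chose the members.

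The largest folds of dry over late seed belonged to genes with few reads in late seed. Sc24g0002260 lay between 0 and 3.41 in early seed, and its lowest, median and highest levels were 0.843, 6.79 and 42.8 in mid seed, 0, 1.04 and 2.46 in late seed, and 331, 1388 and 6360.0 in dry seed. Its fold of dry over late means plus 1 was 1005, on 16493 reads in dry and 6 in late seed, and it was 606 without dry library 2. Sc10g0005210 had 73.1, 521 and 1426 in dry seed and 0, 1.83 and 4.52 in late seed, a fold of 197 on 4684 and 11 reads. Both spread widely among dry libraries, and neither overlapped with late seed.

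Axis stood above cotyledon by a smaller margin than above coat. The median fold of axis over cotyledon was 3.16 (quartiles 2.38 and 6.95, highest 81.0), and that of axis over coat was 8.99 (quartiles 3.51 and 41.2, highest 927). Axis exceeded cotyledon by at least 16-fold for 18 members and coat for 78. Every axis library lay above every cotyledon library for 167 of 200 members, beside 16.9% of all genes at 1 CPM or more, and above every coat library for 188, beside 29.0%. These counts too follow from the choice of the genes.

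Sc07g0003870 and Sc12g0004720 had the largest folds of axis over cotyledon. Sc07g0003870 had 139.7, 280.0, 358, 408 and 327 in axis and 3.42, 0, 0, 9.25 and 1.05 in cotyledon, a fold of 81.0 of means plus 1, or 143 without cotyledon library 4. Sc12g0004720 had 342, 504, 488, 484 and 749 in axis and 4.56, 1.66, 7.11, 18.5 and 0 in cotyledon, a fold of 69.8, or 119 without cotyledon library 4. Neither had a read in any coat library. Their dry-seed means of 93.0 ± 61.7 and 179 ± 71.1 (SD, n = 6) lay below the median member's 586, and Sc07g0003870 had only 0.968 in dry seed library 4.

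Values just inside and outside the limits were close to each other. The last gene kept by the limit of 200 was Sc17g0002360, with a dry-seed mean of 68.1, and the first left out was Sc12g0003590, with 66.5. The smallest fold of dry seed over its nearest stage was 2.02 inside, for Sc13g0001680, and the closest outside was 1.99, for Sc03g0002120. The smallest fold of axis over its nearest tissue was 2.01 inside, for Sc21g0004320, and the closest outside 1.98, for Sc12g0004440. The lowest axis mean inside was 19.9, for Sc03g0006260, while Sc07g0002320, with 2919 in dry seed and 17.9 in axis, was left out.

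Members differed in the stage at which they stood highest before dry seed. Late seed had the highest mean of the 3 developing stages for 113 members, mid seed for 37 and early seed for 50. The 113 that peaked late had medians of 13.9, 36.0, 115 and 934 in early, mid, late and dry seed. The 50 that peaked early had medians of 63.8, 36.5, 26.0 and 334, so a decline in developing seed came before their dry-seed level. The 37 that peaked in mid seed had 44.1, 100.8, 51.3 and 463.

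These 3 blocks also differed in the dissected series. The median fold of axis over coat was 17.0 for members that peaked late, 5.66 for those that peaked in mid seed and 4.16 for those that peaked early. That of axis over cotyledon was 3.41, 2.91 and 3.03 in the same order. The members that peaked late held 7.54% ± 2.02 of dry-seed counts, those that peaked in mid seed 0.179% ± 0.025, and those that peaked early 0.258% ± 0.036 (SD, n = 6). The blocks were formed after the values were seen and are described without a test.

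Comparisons among the developing stages were not used to choose the genes, except that the dry-seed level, by at least 2-fold, set a ceiling for each stage. They were tested over all 18440 genes that passed a filter on low counts, with edgeR's quasi-likelihood test and Benjamini-Hochberg adjustment at 0.05. Of the 200 members 198 passed the filter, and Sc03g0008220 and Sc07g0003850 did not. The filter read all 4 stages, so a member could pass through dry seed alone, where it was chosen to be high. With only the 2 groups compared in the filter and fit, 154 members passed in mid over early seed and 175 in late over mid seed. Sc06g0005900, for one, had no read in early or mid seed and was still among the 198.

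From early to mid seed more members rose than fell. In mid over early seed 72 of 198 members rose (36.4%) and 30 fell (15.2%), beside 26.0% and 23.6% of all genes tested, and 96 did not pass. At least 2-fold changes numbered 59 up and 23 down, beside 1893 up and 1707 down among the 18440 genes tested. The median log2 fold change of the members was 0.38, against 0.02 over all genes. It was 0.37 with the 5 members at 0 in one of the groups set to their bound. With only these 2 groups in the filter and fit, 56 of 154 members rose and 31 fell, beside 27.6% and 28.5% of all genes, with a median of 0.34.

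Members are named here by a rule that asks for an adjusted p under 0.05, a mean of 5 CPM or more where the gene is higher and libraries that do not overlap. Sc13g0003060 and Sc22g0003990 had the largest rises that met the naming rule. Sc13g0003060 had lowest, median and highest levels of 86.3, 146 and 211 in mid seed, and no read in any early library. Mid seed was at least 43.9-fold higher against a floor of 3 counts per library, with edgeR adjusted p = 1.86e-06. Sc22g0003990 had 29.1, 69.5 and 168 in mid seed and 0, 0 and 1.34 in early seed, on 581 and 2 reads, a ratio of 248 (95% interval for counting error 68.3 to 2050; edgeR adjusted p = 4.09e-06). Both genes were well above early seed in every mid library.

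Sc26g0000130 and Sc21g0006470 had the largest falls that met the naming rule. Sc26g0000130 had 21.3, 43.3 and 55.8 in mid seed, against 239, 306 and 333 in early seed, a log2 fold change of -2.85 ± 0.33 (SE; edgeR adjusted p = 1.37e-07). It had 7.74, 8.83 and 17.2 in late seed and 145, 781 and 1229.8 in dry seed. Sc21g0006470 had 21.1, 26.2 and 36.6 in mid seed, against 69.0, 117 and 133 in early seed, a log2 fold change of -1.93 ± 0.29 (SE; edgeR adjusted p = 6.50e-06). Its dry-seed libraries stood at 1961, 3017 and 4939.8, above all libraries of the other stages.

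From mid to late seed too more members rose than fell. In late over mid seed 94 of 198 members rose (47.5%) and 28 fell (14.1%), beside 27.3% and 29.8% of all genes tested, and 76 did not pass. At least 2-fold changes numbered 78 up and 16 down, beside 1904 up and 2625 down among the 18440 genes tested. The median log2 fold change was 0.64 for the members and -0.02 for all genes. Without late seed libraries 4 and 6 the counts were 78 and 34. They are given without the share of all genes, so nothing is read from them. With only these 2 groups in the filter and fit, 83 of 175 members rose and 26 fell, beside 29.8% and 31.9% of all genes. The comparison shares its mid-seed libraries with the one above, so the 2 are not independent.

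Sc01g0007780 and Sc17g0004760 had the largest rises into late seed that met the naming rule. Sc01g0007780 had 112, 346 and 2127 in late seed, against 0, 0 and 3.36 in mid seed, where 3 reads lay in library 1. The ratio of summed counts was 1544 (95% interval for counting error 528 to 7490), and the log2 fold change was 10.28 ± 1.10 (SE; edgeR adjusted p = 1.64e-07), or 12.58 without mid library 1 and 9.58 without late library 4. In dry seed it had 46486, 54398 and 151131. Sc17g0004760 had 699, 1127 and 5764 in late seed, against 0, 2.18 and 18.6 in mid seed, a log2 fold change of 8.66 ± 0.67 (SE; edgeR adjusted p = 1.81e-10). It was 10.08 without mid library 5 and 7.96 without late library 4.

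Sc26g0004400 and Sc10g0003890 had the largest falls into late seed that met the naming rule. Sc26g0004400 had 6.63, 21.3 and 45.4 in late seed, against 52.3, 155 and 614 in mid seed, a log2 fold change of -3.40 ± 0.73 (SE; edgeR adjusted p = 0.000332). Sc10g0003890 had 31.5, 51.3 and 81.2 in late seed, against 99.2, 152 and 302 in mid seed, a log2 fold change of -1.84 ± 0.29 (SE; edgeR adjusted p = 8.92e-06). In dry seed the lowest, median and highest levels were 380.4, 1122 and 3174 for Sc26g0004400 and 318, 431 and 725 for Sc10g0003890.

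Other dry-seed genes were read from the same fits. Of the 74 tested that were preferred in cotyledon, 24 rose and 12 fell in mid over early seed, and 27 rose and 5 fell in late over mid seed. Of the 99 preferred in coat, 13 rose and 34 fell in the first and 39 rose and 13 fell in the second. Of the 2333 others, 679 and 303 rose and fell in the first, and 674 and 443 in the second. Differences between these groups of genes were not tested.

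**Figure D4:**
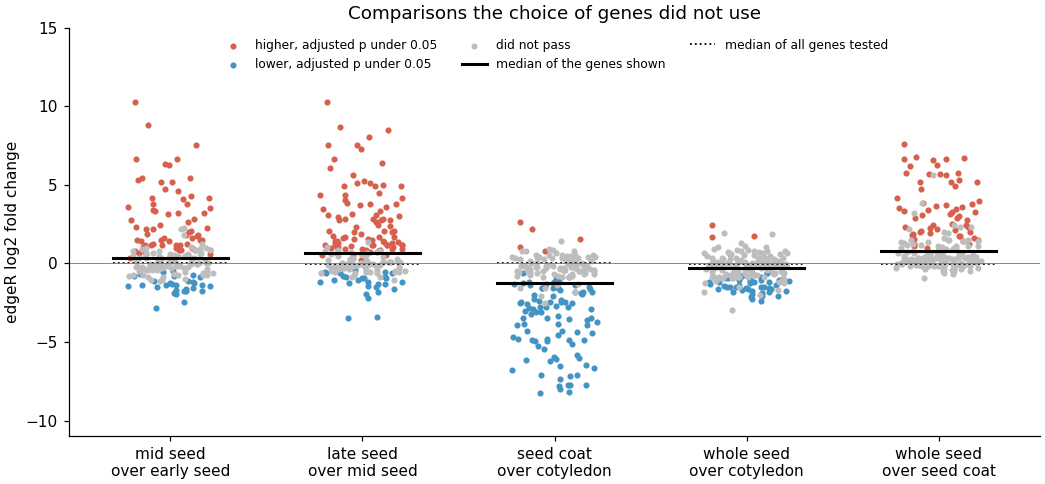
edgeR log2 fold change of each of the 198 tested members in the 5 comparisons that the choice of genes did not use. Points in red rose and points in blue fell at an adjusted p under 0.05, grey points did not pass, and lines give the median of the members (solid) and of all genes tested (dotted); members lie mostly above 0 in late over mid seed, with a median of 0.64, and mostly below 0 in seed coat over cotyledon, with a median of -1.21.

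Among the dissected mid-stage tissues, seed coat held less of these genes than cotyledon. The choice of genes kept both at least 2-fold below axis and did not use the difference between them. In coat over cotyledon 5 of 198 members rose and 98 fell (49.5%), beside 28.3% and 29.7% of the 18499 genes tested, and 95 did not pass. Sc06g0005900 and Sc21g0000240 were not tested here. The filter read all 4 dissected groups, so a member could pass through axis alone, where it was chosen to be high. With only coat and cotyledon in the filter and fit, 4 of 157 members rose and 67 fell, beside 24.8% and 26.2% of all genes, and the median log2 fold change was -0.85. Of the 98 falls 96 were at least 2-fold, beside 3000 of the 5488 falls over all genes in the fit of all 4 groups. The 5 rises became 3 without cotyledon library 3 and 8 without cotyledon libraries 1 and 5. In the fit of all 4 groups the median log2 fold change was -1.21 for the members, or -0.95 with the 7 at 0 in one group set to their bound, and -0.00 for all genes.

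Sc18g0005130 and Sc19g0007500 had the largest falls in coat that met the naming rule. Sc18g0005130 had 7.60, 19.5, 18.5, 2.72 and 30.2 in coat, against 3463, 4375, 5114, 5418 and 3166 in cotyledon, a log2 fold change of -8.17 ± 0.41 (SE; edgeR adjusted p = 7.61e-13). Its axis libraries had 9962, 11224, 10222, 11828 and 11471, close to each other and all above cotyledon. Sc19g0007500 had 35.5, 63.3, 39.5, 15.4 and 114 in coat, against 11328, 15269.9, 19532, 11714 and 10913 in cotyledon, a log2 fold change of -8.01 ± 0.47 (SE; edgeR adjusted p = 1.06e-11). Its axis mean was 32714 ± 5547 (SD, n = 5). Both genes were low in every coat library.

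No member that was higher in coat met the naming rule. Among the 5 that rose, Sc06g0007510 was chosen here after its values were seen. It had 33.6, 54.7, 59.2, 66.2 and 39.8 in coat, against 18.2, 4.98, 7.11, 16.4 and 5.27 in cotyledon, a log2 fold change of 2.21 ± 0.31 (SE; edgeR adjusted p = 3.67e-06). Its axis libraries lay far above both, between 511 and 876.

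More members fell than rose in whole seed, which holds the axis with the other parts, over cotyledon. In whole seed over cotyledon 4 of 198 members rose and 45 fell (22.7%), beside 16.3% and 16.9% of all genes tested, and 149 did not pass. The 4 rises became 7 without cotyledon library 1 or without library 4. With only these 2 groups in the filter and fit, 4 of 163 members rose and 41 fell, beside 14.6% of all genes each way. In the fit of all 4 groups the median log2 fold change was -0.30 for the members and -0.03 for all genes. Whole-seed means lay within the range of the 3 dissected parts for 183 of 200 members, above axis for 0 and below all 3 parts for 17. They exceeded both cotyledon and coat for 42.

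Sc23g0005650 and Sc19g0007900 had the largest rises that met the naming rule in whole seed over cotyledon. Sc23g0005650 had 221, 299, 299.8, 316 and 382 in whole seed, against 176, 98.0, 45.0, 76.1 and 64.3 in cotyledon, a log2 fold change of 1.72 ± 0.34 (SE; edgeR adjusted p = 0.000696). It also rose in coat over cotyledon, with 268, 323, 393, 260.1 and 106 in coat (log2 fold change 1.55 ± 0.34, SE; edgeR adjusted p = 0.000559). Its axis libraries had 1718, 4360.3, 4479, 2916 and 4526. Sc19g0007900 had 266, 209, 182, 217 and 276 in whole seed, against 161, 99.7, 171, 175 and 145 in cotyledon, a log2 fold change of 0.63 ± 0.18 (SE; edgeR adjusted p = 0.0100).

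The largest falls in whole seed over cotyledon that met the naming rule were those of Sc17g0001390 and Sc01g0008700. For Sc17g0001390, with the values given above, the log2 fold change was -2.36 ± 0.52 (SE; edgeR adjusted p = 0.00183). Sc01g0008700 had 25.2, 14.9, 9.08, 33.8 and 26.1 in whole seed, against 51.3, 174, 82.9, 119 and 52.7 in cotyledon, a log2 fold change of -2.13 ± 0.45 (SE; edgeR adjusted p = 0.00134). Neither gene's libraries overlapped between whole seed and cotyledon.

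Against coat, whole seed was higher for many members. In whole seed over coat 65 of 198 rose (32.8%), beside 12.4% of all genes tested, and 133 did not pass. None fell by edgeR's quasi-likelihood test, beside 6.34% of all genes, and 0 had an unadjusted p under 0.05 in that direction, while DESeq2's Wald test also called 0. With only these 2 groups in the filter and fit, 53 of 158 members rose and 0 fell, beside 12.9% and 9.40% of all genes, with a median log2 fold change of 0.55. In the fit of all 4 groups the log2 fold change was below 0 for 32 members, at lowest -0.90. The median was 0.78 for the members, or 0.68 with the 7 at 0 in one group set to their bound, and -0.03 for all genes. The 3 comparisons of the dissected series share libraries pairwise, and whole seed contains the axis in which these genes were chosen to be high.

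Sc05g0007040 and Sc18g0005130 had the largest rises that met the naming rule in whole seed over coat. Sc05g0007040 had 114, 198, 257, 126 and 147 in whole seed, against 0.634, 0.781, 1.23, 0 and 6.86 in coat, on 957 and 8 reads. Its log2 fold change was 6.72 ± 0.52 (SE; edgeR adjusted p = 2.68e-09), or 7.86 without coat library 5. Sc18g0005130 had 1383, 967, 2303, 1998 and 937 in whole seed, against the coat values given above, a log2 fold change of 6.68 ± 0.39 (SE; edgeR adjusted p = 2.61e-11).

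The members varied more between libraries of a group than genes did in general. Over members with a group mean of at least 20, the median coefficient of variation was 21.2% in early seed, 31.4% in mid seed, 42.7% in late seed and 39.2% in dry seed. Over all genes with a group mean of at least 20 it was 14.7%, 16.5%, 15.8% and 22.1% in the same order. In the dissected series it was 21.8% for members and 13.3% for all genes in axis, 31.5% and 15.03% in whole seed, 33.7% and 18.4% in coat, and 38.6% and 23.1% in cotyledon. Members and all genes were not matched for level, on which this measure depends. The cause of the gap was not tested.

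In late seed the median coefficient of variation of the members was 27.2% without libraries 4 and 6, against 42.7% with them. Over all genes it was 12.6% without them, against 15.8% with them. Libraries 4 and 6 both lay above all 4 other late libraries for 88 of the 200 members (44%). They lay below the other 4 for 3 members, and the median log2 difference was 0.67. For all genes at 1 CPM or more in the time course they were above in 10.7% and below in 13.0%. Among dry-seed genes preferred in cotyledon they were above for 11 of 76, among those preferred in coat for 16 of 101 and among the others for 473 of 2390.

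The median fold of dry over late seed was 5.67 when late seed was taken from libraries 4 and 6, and 9.67 when it was taken from the other 4. With libraries 4 and 6 alone 12 members lay under the 2-fold limit, and with the other 4 alone 1 did. The highest late library was library 4 for 82 members and library 6 for 74, beside 16.8% and 23.5% of all genes. In dry seed library 4 was the highest for 100 members, beside 24.3% of all genes, and lay 0.46 (log2) above the other dry libraries at the median. Cotyledon library 5 was the lowest of its group for 105 members, given without the share of all genes. It was the highest for 29 members, beside 29.9% of all genes. Its median was -0.70 (log2) against the others, and -0.06 over all genes. Cotyledon library 4 was the highest for 81 members, beside 26.3% of all genes. Its median was 0.46, and 0.05 over all genes. What sets these libraries apart was not tested.

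**Figure D5:**
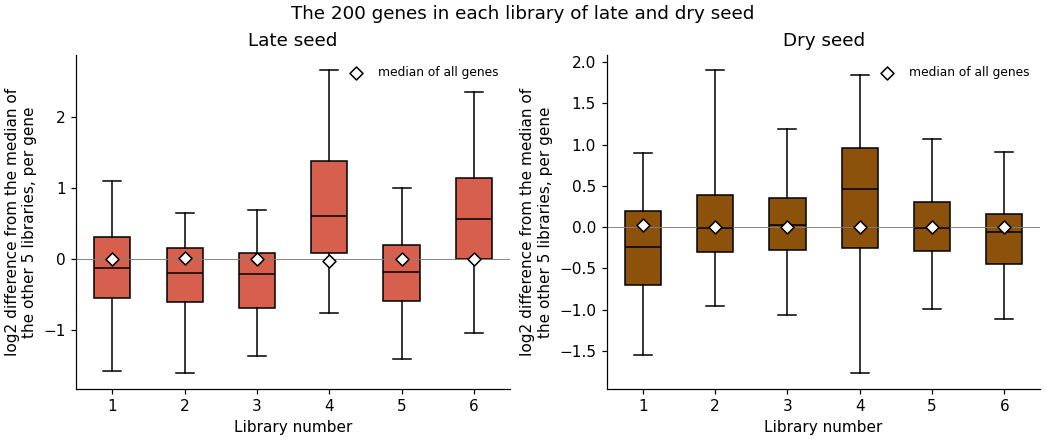
Difference of each library from the median of the other 5 libraries of its stage, per gene, on the log2 scale, for the 200 genes in late seed (left) and dry seed (right). Boxes span quartiles with the median, whiskers run from the 5th to the 95th percentile, and diamonds give the median of all genes; late libraries 4 and 6 lie at medians of 0.61 and 0.57 and dry library 4 at 0.46, while the diamonds lie near 0.

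The identifiers of the members were not gathered under a few prefixes. They carried 26 of the 27 identifier prefixes in the files. Among them 20 formed 10 pairs of consecutive identifiers, given without the share over all genes. One such pair, Sc19g0007020 and Sc19g0007030, had dry-seed means of 67502 and 7558 and axis means of 5526 and 537, with r = 0.87 over the 44 libraries of both series. In another, Sc24g0002260 and Sc24g0002270, the dry-seed means were 2132 and 281 and the axis means 65.9 and 2096, so the gene higher in one was lower in the other. This pair had r = 0.58, and over the 10 pairs r ran from 0.51 to 0.95. The correlation pools libraries of separately normalized series, so it also carries any offset in scale between the series. It describes libraries that share stages and tissues, and genes chosen to be high in dry seed and axis. Nothing further is read from it. Consecutive genes can be near-identical copies that share reads, which the files do not show.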

How the data were processed

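Read counts per gene, not normalized, were deposited by the authors in 1 table per series, beside the same tables as normalized counts, a signal scaled for library size. Dividing counts by normalized values gave a single factor for every gene of a library (largest relative deviation 5.86e-10 and 6.24e-10). Per the submitters' processing notes reads were handled with tools that include STAR, Trimmomatic and DESeq2. Per the labels, RNA was extracted with hot borate, followed by a stranded mRNA library kit. For the counter, genome build, annotation and use of strand, nothing is given in the sources used here, so antisense or near-identical genes may share reads.

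Members were taken from group means of the normalized values plus 1, and the members and the lists were chosen with earlier results of these data known. Counts were tested with edgeR 4.0.16 in R 4.3.3 (TMM, filterByExpr, glmQLFit, glmQLFTest, all 4 groups of a series in 1 fit), with Benjamini-Hochberg adjustment over all genes. Python 3.11.15, pandas 2.3.3, numpy 2.4.6 and matplotlib 3.10.9 served for tables and plots.

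Named members are the 2 highest in dry seed, the 2 with the largest folds of dry over late seed and of axis over cotyledon, and in each test the 2 largest rises and falls at adjusted p under 0.05, a mean of 5 CPM or more where the gene is higher and libraries that do not overlap. Floors are 3 counts per library, and floors and intervals cover counting error only. No libraries of a group were treated as duplicates, since they differed beyond sampling noise (chi-square over degrees of freedom of at least 8.50 and 10.6). Alternatives were DESeq2 1.42.0 with its Wald test, its size factors or upper-quartile scaling in edgeR, the replicate number as a block, no filter, fits of only the 2 groups compared, libraries left out, 3-fold limits, no addition to the means and TMM CPM for the choice of members. Cotyledon libraries 1 and 5 were left out together after an earlier look at all genes. Chosen with the data in view were member counts with no limit of 200, dry seed without library 4, folds of named members with each library left out, and the late-seed spread lacking libraries 4 and 6. Names, sequences and gene classes were not used here.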

Additional observations from a re-analysis of the deposited data

Results flagged for a closer look

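In groups of 5 or 6 libraries, the highest or lowest library was set against the gap to its nearest neighbour, over 113 groups of the named genes and 8 groups of the share of counts. For independent groups of normally distributed values, chance gives such a gap in about 1 in 20. Here 21 were found. The groups share libraries and hold genes named for large values, so the 21 are not read against that rate. Dry seed library 4 gave 8 of the 21 gaps, all as the highest. In it the 200 genes took 11.8637% of counts, and the normalized counts were 70139 for Sc13g0003060, 5636 for Sc22g0003990, 151131 for Sc01g0007780, 105142 for Sc17g0004760, 46731 for Sc18g0005130, 249840.0 for Sc17g0001390 and 204795 for Sc06g0003330. Over all 200 members such a gap was present in dry seed for 42 (21.0%). This is given without the share over all genes, so it too is not read against that rate.

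Late seed library 4 was the highest of its group for Sc17g0004760, at 5764, and for Sc12g0004720, at 179. In whole seed library 4 stood out for Sc01g0007780, at 186, and for Sc17g0004760, at 361, and library 3 for Sc10g0003890, at 85.5. Seed coat library 5 stood out for the share of counts, at 0.0788%, and for Sc01g0007780, at 85.1. The share was also highest in cotyledon library 3, at 0.473%, and in embryonic axis library 5, at 1.94%. Single values stood out for Sc26g0000130 in early seed library 6, the lowest at 239, for Sc19g0007900 in mid seed library 2, at 629, for Sc06g0003330 in mid seed library 3, at 1733, and for Sc24g0002260 in dry seed library 2, at 6360.0. Causes of these gaps were not tested.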

How the results depend on the processing

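Of the summary values recomputed under the alternatives, 319 kept their direction and size and 7 moved by over 1.5 times. Of the values of single named members, 323 stayed within that limit and 3 moved. Those 3 were folds that chose the names. They became 606 for Sc24g0002260 without dry seed library 2, and 143 for Sc07g0003870 and 119 for Sc12g0004720 without cotyledon library 4. Some log2 fold changes that lay within 1.5 times as log2 values moved by more than that as folds. Sc01g0007780 had 12.58 without mid seed library 1, against 10.28, and Sc17g0004760 had 10.08 without mid seed library 5, against 8.66. Sc05g0007040 had 7.86 without seed coat library 5, against 6.72. Members higher in seed coat over cotyledon were 5, against 8 without cotyledon libraries 1 and 5 together, 8 with no limit of 200, and 3 to 7 with each library left out in turn (3 without cotyledon library 3). Members higher in whole seed over cotyledon were 4, against 4 to 7 with each library left out in turn (7 without cotyledon library 1 or without library 4). With limits of 3-fold in place of 2-fold, 96 genes met the rule and all 96 were kept, 81 of them among the 200. With each library left out in turn 215 to 245 genes met the rule, and at least 179 of the 200 kept genes were shared. Without late seed libraries 4 and 6 together 251 met it and 185 were shared, and without cotyledon libraries 1 and 5 together 203 met it and 167 were shared. The cause was not tested.

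With the replicate block, 72 members rose and 31 fell in mid over early seed, and 91 and 28 in late over mid seed. Beside them, 4732 and 4266, and 5032 and 5427, of all 18440 genes tested did so. In coat over cotyledon 5 members rose and 96 fell. In whole seed 4 rose and 44 fell over cotyledon, and 65 and 0 over coat. Of all 18499 genes tested, 5235 and 5423, 3012 and 2981, and 2213 and 1051 did so in the same order. The labels do not say that numbers pair libraries, and same-numbered libraries correlated beyond 0.1 in 1 of 6, 0 of 6, 1 of 5, 3 of 5 and 1 of 5 pairs, so pairing was not established. Few reads per gene limit members near 0, where only large differences can be seen. In early seed 36 members averaged under 5 normalized counts, and in coat 47.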

Other observations

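Across the 200 members the order of levels in dry seed resembled that in late seed, with a Spearman correlation of 0.81, in axis, with 0.72, and in cotyledon, with 0.69, more than that in coat, with 0.35. Levels in mid seed of the time course and in whole seed of the dissected series, both labelled as the mid stage, had a Spearman correlation of 0.76. These are correlations across genes that share libraries, depth and gene length and that were chosen by their dry-seed and axis levels, and they are given as a description. Coat stood below cotyledon in the mean of 160 members and above it in 40.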
